A study of Homo sapiens with 12 samples.

Results

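The response of SNU-5 cells to crizotinib was read from 6 arrays, 3 of SNU-5 cells with crizotinib and 3 of SNU-5 control cells, out of 12 arrays in the series. They were chosen by their titles alone, and genes were followed where a named probe was detected on at least 3 of the 12 arrays. The comparison addresses which transcripts differ in these cells under a MET inhibitor. SNU-5 is an established human gastric cancer line with amplification of MET, and crizotinib is a small molecule that inhibits the MET kinase. The crizotinib group was exposed to 1 µM for 24 h, the control group is labelled as untreated, and both were grown in Iscove's medium with serum. All 6 arrays come from this single line, so the values describe these cells and not gastric cancers at large. The other 6 arrays hold a second MET-amplified gastric line, MKN45, given the same dose and time or left untreated, and they enter only through the shared estimate of the spread and the comparison between lines. Neither the labels nor the methods say that the 3 replicates were separate cultures, and the p-values then refer to the spread among these samples alone, possibly a technical one.

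MET is the receptor for hepatocyte growth factor. When it is amplified it signals without ligand and feeds RAS and the ERK kinases, which drive immediate early transcription factors, cyclin D1 and MYC. It also feeds the PI3K and AKT kinases, which keep the FOXO transcription factors out of the nucleus and hold mTORC1 active. MYC drives the genes for ribosome assembly and nucleotide synthesis, and the E2F factors drive those for DNA replication. ERK also induces its own inhibitors, the dual-specificity phosphatases and Sprouty proteins, whose transcripts are widely used as a readout of ERK activity.

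Each value below is a normalized log2 signal of a probe on a HumanHT-12 v4 array, and a log2 change is the mean of the 3 crizotinib arrays minus that of the 3 control arrays. An error given with ± is the standard error of a log2 change in the limma fit, with 3 arrays in each group. Apart from the marker sums below and the choice of a gene's brightest probe, signals of different probes were not compared with each other. In RNA pooled from a culture, fewer cells that express a gene and less RNA of it per cell cannot be told apart. Mean raw signals were 313 to 332 on the crizotinib arrays and 328 to 557 on the control arrays, and 18998 to 20064 probes were detected per array. Control replicate 1 had the raw mean of 557 and stood apart from the other controls. After normalization it correlated with them at 0.966 and 0.952, whereas control replicates 2 and 3 correlated at 0.989 and the crizotinib arrays at 0.987 to 0.993. The first principal component of the 6 arrays held 65.4% of the variance and separated the crizotinib arrays from all 3 control arrays, and the second held 22.8% and set control replicate 1 apart. Many counts are therefore also given without that array, and several with other single arrays left out. Of 8 epithelial markers 6 were detected on all 6 arrays and ESRP1 on none. The summed log2 level was 15.17 to 15.30 with crizotinib and 15.02 to 15.43 in controls, with KRT19 the largest member. Other members moved within this sum. KRT8 read 12.03 to 12.32 with crizotinib and 12.63 to 13.84 in controls. ELF3 read 11.51 to 11.67 with crizotinib and 10.37 to 10.78 in controls, and CLDN4 7.33 to 7.71 and 6.10 to 6.72. Of 7 leukocyte markers on the array, CD14, LYZ and CD68 were detected on all 6 arrays and PTPRC, CD3E and CD3D on none, and the list summed to 10.06 to 10.68 with crizotinib and 10.59 to 10.97 in controls. Of 6 endothelial markers VWF, CDH5, KDR and CLDN5 were detected on none, PECAM1 and TEK were each detected on 2 arrays, and the list summed to 6.99 to 7.15 with crizotinib and 7.06 to 7.20 in controls. Of 7 gastric markers only ANXA10 was detected on all 6 arrays, while TFF1, GKN1, CLDN18 and VSIG1 were detected on none. That list summed to 10.64 to 10.80 with crizotinib and 11.44 to 12.22 in controls. Of 8 intestinal markers 5 were detected on all 6 arrays and CDX1 and MUC2 on none, with a sum of 13.45 to 13.87 with crizotinib and 12.83 to 13.33 in controls. Of 7 fibroblast markers 1 was detected on all 6 arrays, and the list summed to 12.36 to 12.65 with crizotinib and 10.03 to 10.78 in controls, mostly through LUM, while PDGFRB and THY1 were detected on none. Their part in the other changes was not tested.

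The response was broad and nearly balanced. Of 12760 genes tested, 941 (7.37%) were called higher and 1048 (8.21%) lower, where a call needed a limma p under 0.001, an adjusted p (Benjamini-Hochberg) below 0.05 and at least a 2-fold difference at any probe of the gene. For counts within gene groups, a gene passed when the adjusted p of its brightest probe was under 0.05 whatever the size of the change. By this rule 2300 genes (18.0%) rose and 2187 (17.1%) fell, and the median log2 change over all genes was 0.018. Both shares are the background for the counts of every gene group below. Of the 12760 genes, 582 were detected on no SNU-5 array at that probe and were tested because MKN45 arrays detected them. Such genes can show little change, so a group with many of them tends to have lower shares and a median nearer to no change. Without control replicate 1 the calls were 1053 higher and 1106 lower. Changes of at least 4-fold were seen at the brightest probe of 146 called genes that rose and 192 that fell, and changes of at least 8-fold for 21 and 37. The crizotinib and control arrays did not overlap for any called gene at that probe, against 47.5% without overlap among all genes tested.

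**Figure D1:**
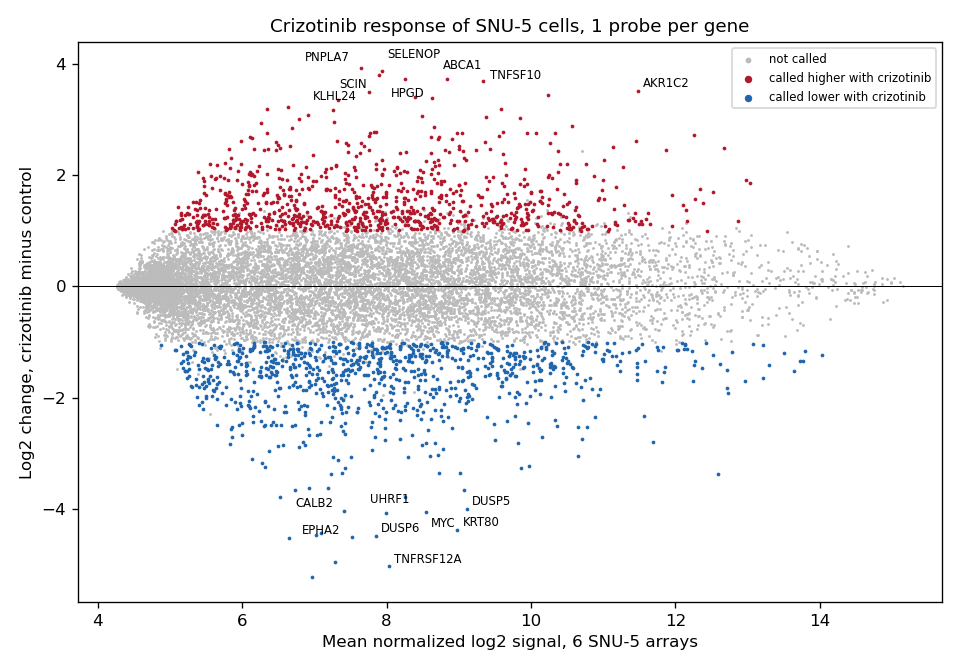
Log2 change (crizotinib minus control, vertical axis) against mean normalized log2 signal over the 6 SNU-5 arrays (horizontal axis), 1 point for each of 12760 genes at its brightest probe. Coloured points passed the call at that probe, and the names mark the largest changes among genes detected on all 6 arrays, from TNFRSF12A at -5.03 to PNPLA7 at 3.93.

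Among genes detected on all 6 arrays, the falls reached further than the rises. TNFRSF12A, the receptor for the cytokine TWEAK, read 5.17, 5.34 and 6.06 on the crizotinib arrays, against 9.89, 10.89 and 10.87 on the control arrays. All 3 crizotinib arrays were more than 3 log2 units below the lowest control array, and the log2 change was -5.03 (standard error 0.30, limma adjusted p = 1.0e-07). EPHA2, a receptor for ephrins, read 5.15, 5.38 and 5.26 on the crizotinib arrays, against 11.09, 9.35 and 8.89 on the control arrays. Its highest value was control replicate 1, and its change, -4.51 (standard error 0.40, limma adjusted p = 2.5e-06), became -3.85 without that array. KRT80, a type II keratin, changed by -4.37 ± 0.27, CALB2, the calcium buffer calretinin, by -4.03 ± 0.23 and VGF, a secreted neuropeptide precursor, by -3.66 ± 0.22. LRP8, a lipoprotein receptor, changed by -3.62 ± 0.23 and TRIP13, an ATPase that remodels checkpoint complexes, by -3.36 ± 0.15. The other large falls belonged to ERK output, DNA replication and nucleotide synthesis and are described with those groups.

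The largest rises covered genes of varied roles. PNPLA7, a lysophospholipase, read 9.78, 9.50 and 9.57 on the crizotinib arrays, against 5.56, 5.61 and 5.89 on the control arrays, a difference of 3.93 (standard error 0.22, limma adjusted p = 5.8e-08) on the log2 scale. SCIN, the actin-severing protein adseverin, read 9.78, 9.98 and 9.65 on the crizotinib arrays, against 6.13, 5.81 and 6.05 on the control arrays, a change of 3.81 (standard error 0.21, limma adjusted p = 6.1e-08). KLHL24, a substrate adaptor of a ubiquitin ligase, read 9.64, 9.45 and 9.43 on the crizotinib arrays, against 5.70, 6.21 and 6.13 on the control arrays. The change of KLHL24 was 3.49 (standard error 0.19, limma adjusted p = 6.1e-08). Groups without overlap were a condition for naming these rises and the falls above, so their separation is not a separate finding. BCO1, which cleaves beta-carotene to retinal, changed by 3.41 ± 0.18. PRR15L changed by 3.18 ± 0.14, TMT1A, a thiol methyltransferase, by 3.16 ± 0.25, the pseudogene CASTOR3P by 3.06 ± 0.16 and VPS37D, a subunit of the ESCRT-I sorting complex, by 3.05 ± 0.23.

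**Figure D2:**
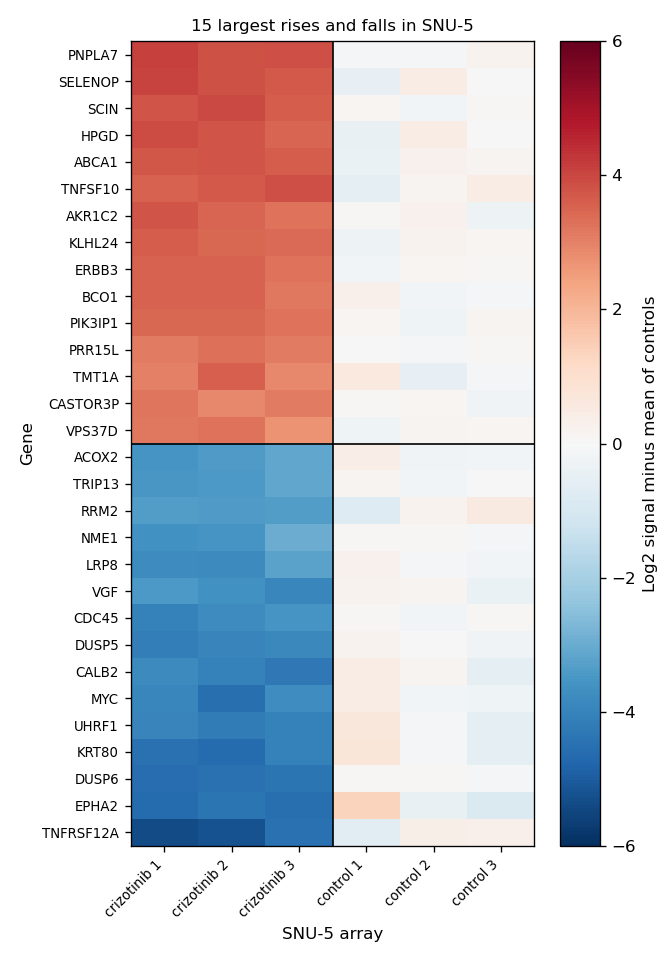
The 15 largest rises and 15 largest falls among called genes detected on all 6 SNU-5 arrays, as each array's log2 signal minus the mean of the 3 control arrays (colour, log2 units). The 3 crizotinib columns are to the left of the 3 control columns. Control replicate 1 differs from the other controls in some rows, for example EPHA2 at 11.09 against 9.35 and 8.89, without reaching the crizotinib arrays.

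A further set of called genes was detected on all arrays of 1 group and on none of the other, so that the fold is only a bound. There were 63 such genes detected only without crizotinib and 36 detected only with it. ETV5, an ETS factor that ERK induces, read 4.38, 4.38 and 4.31 on the crizotinib arrays, against 9.89, 9.59 and 9.25 on the control arrays, and was at least 25.9-fold lower with crizotinib. CTPS1, which makes CTP, was at least 20.7-fold lower, at 4.86, 4.80 and 4.68 on the crizotinib arrays, against 9.63, 9.08 and 9.06 on the control arrays. The bounds were 16.2-fold for MYEOV, an oncogene amplified in several carcinomas, and 11.6-fold for MCM10, which loads replication proteins. COL1A2, a chain of type I collagen, was at least 8.28-fold lower and THBD, thrombomodulin, at least 6.98-fold lower. Smaller bounds were reached by STEAP3, a ferrireductase (5.48-fold), GRHL3, an epithelial transcription factor (5.17-fold), CLDN2, a pore-forming claudin (5.03-fold), and POLR1G, a subunit of RNA polymerase I (5.01-fold). The genes detected only with crizotinib had smaller bounds. PROC, protein C of the anticoagulant pathway, read 7.19, 7.16 and 6.82 on the crizotinib arrays, against 4.71, 4.52 and 4.51 on the control arrays, and was at least 4.51-fold higher. Next came N4BP2L1 at 3.98-fold, PTH1R, the parathyroid hormone receptor, at 3.63-fold, and ECM2, a matrix protein, at 3.4-fold. ADHFE1, a hydroxyacid dehydrogenase, was at least 3.25-fold higher, CFAP144 3-fold, FMO5, a flavin monooxygenase, 2.93-fold, SHD 2.9-fold, CLIC3 2.88-fold and CSPG4, a proteoglycan, 2.81-fold. The adjusted p of these 20 genes in the limma fit was at most 4.3e-05.

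The transcript of the drug's target was close to level. MET read 11.67, 11.65 and 11.48 on the crizotinib arrays, against 11.83, 11.84 and 11.60 on the control arrays. The groups overlapped, and the log2 change was -0.16 (standard error 0.21, limma adjusted p = 0.63). Of 18 tested genes for MET, its ligand-like and plexin relatives and its adaptors, 4 (22.2%) rose and 2 (11.1%) fell, against 18.0% and 17.1% of all genes. The counts were 5 and 1 without control replicate 1, with 1 fall in every fit without 1 array other than control replicate 3. PLXNB1, the semaphorin receptor that can associate with MET, rose by 1.97, and so did MST1, the ligand of the MET relative RON (1.97). The hepatocyte growth factor activator inhibitor SPINT2 rose by 0.75. The adaptor SHC1 changed by -1.09, but it did not pass in most of the fits that left out 1 array, and was at -0.49 without control replicate 1. CD44, a co-receptor of MET, changed by -0.85, whereas the adaptor GRB2 was at -0.086 and the phosphatase PTPN11 at -0.48 without passing. Among 16 other receptor tyrosine kinases the clear change was in ERBB3, a kinase-impaired receptor that recruits PI3K. ERBB3 read 12.04, 12.08 and 11.77 on the crizotinib arrays, against 8.34, 8.62 and 8.61 on the control arrays. Every crizotinib array lay more than 3 log2 units above every control array, a change of 3.44 (standard error 0.15, limma adjusted p = 1.7e-08). FGFR3 rose by 1.32. ERBB2, the partner of ERBB3, changed by 0.88, but its groups overlapped and it did not pass in most of the fits that left out 1 array, with 0.57 with an adjusted p of 0.15 without control replicate 3. TYRO3 fell by 1.44. EGFR was at 0.095 and did not pass, and no SNU-5 array detected IGF1R. Of 12 growth factor ligands 5 fell, and 4 fell in every fit without 1 array other than SNU-5 control replicate 2 or 3. The falls in the full fit included the EGF receptor ligands EREG (-2.13), HBEGF (-1.12) and TGFA (-0.91). The only rise was NRG4, a ligand of ERBB4 (1.61).

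Transcripts of the ERK feedback loop fell together. Of 21 tested feedback inhibitors 14 fell and 0 rose, with a median log2 change of -1.07 (-0.95 with genes detected in only 1 group at their bound). Leaving out control replicate 1 gave 14 falls and 1 rise. DUSP6, the cytoplasmic ERK phosphatase, read 5.55, 5.61 and 5.70 on the crizotinib arrays, against 10.15, 10.16 and 9.99 on the control arrays. Its groups were separated by more than 4 log2 units with little spread, and the change was -4.48 (standard error 0.15, limma adjusted p = 2.4e-09). SPRY4, a Sprouty protein, changed by -4.95 (standard error 0.24, limma adjusted p = 4.3e-08). The nuclear ERK phosphatase DUSP5 read 6.95, 7.15 and 7.25 on the crizotinib arrays, against 11.31, 11.12 and 10.92 on the control arrays, a change of -4.00 (standard error 0.19, limma adjusted p = 3.9e-08). SPRED1 and SPRED2, which recruit neurofibromin to RAS, changed by -3.12 ± 0.17 and -2.50 ± 0.17 and SPRY2 by -2.59 ± 0.19. ERRFI1, which inhibits EGF receptor family kinases, changed by -1.29 ± 0.18. DUSP10, which acts mainly on JNK and p38, was detected on 1 control array and no other. Of 29 transcription factors induced by ERK or by serum, 15 fell and 4 rose. Besides ETV5, the falls included the ETS factor ETV4 (-3.18), FOSL1, a subunit of AP-1 (-3.67), and EGR1 (-2.94). JUN changed by -1.51 ± 0.15 and FOS, detected only without crizotinib, was at least 1.44-fold lower, while JUNB (-0.48), JUND (-0.0074) and SRF (-0.064) did not pass. Factors that moved the other way were ID3, an inhibitor of bHLH factors (2.89), KLF2 (2.01), KLF5 (1.21) and ETS1 (0.91).

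**Figure D3:**
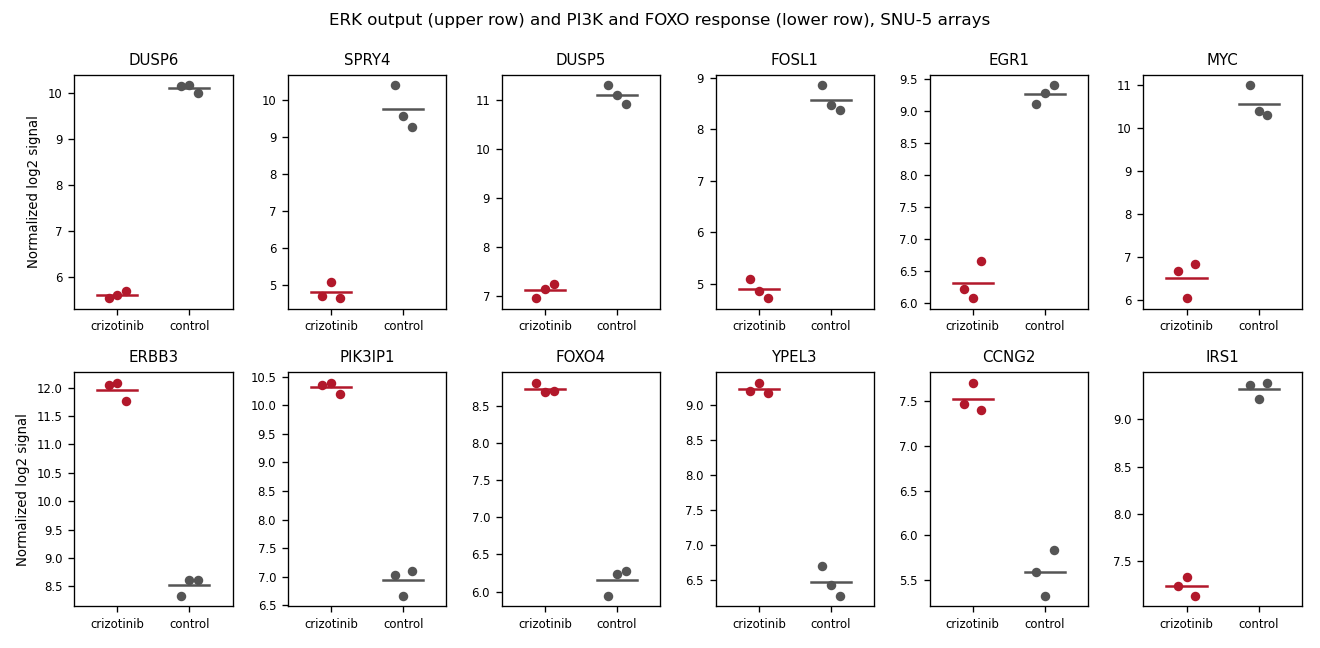
Normalized log2 signal on each SNU-5 array for 6 genes of the ERK output (upper row) and 6 genes of the PI3K and FOXO response (lower row). Each point is 1 array, crizotinib to the left and control to the right, and the bar is the mean of 3 arrays. DUSP6 sits at 5.55 to 5.70 with crizotinib and 9.99 to 10.16 in controls, and ERBB3 at 11.77 to 12.08 with crizotinib and 8.34 to 8.62 in controls.

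Genes of the PI3K and FOXO response moved mainly upward. Of 26 tested, 15 rose and 3 fell, with a median of 1.24, and the counts were the same without control replicate 1. PIK3IP1, an inhibitor of PI3K, read 10.36, 10.39 and 10.20 on the crizotinib arrays, against 7.03, 6.67 and 7.11 on the control arrays, a change of 3.38 (standard error 0.18, limma adjusted p = 4.7e-08). The FOXO genes themselves rose, FOXO4 by 2.58, FOXO3 by 1.68 and FOXO1 by 1.07. YPEL3 and YPEL5 both rose by 2.77, CCNG2, a cyclin of resting cells, by 1.93 and BCL6, a repressor, by 1.71. TXNIP, which restrains glucose uptake, rose by 1.91. Of the insulin receptor substrates, IRS2 rose by 1.59 and IRS1 changed by -2.09 (standard error 0.24, limma adjusted p = 2.5e-05). The mTOR inhibitor DEPTOR also fell, by 0.91.

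MYC and its network shifted in opposite directions. MYC read 6.67, 6.05 and 6.83 on the crizotinib arrays, against 11.00, 10.40 and 10.31 on the control arrays. The groups were more than 3 log2 units apart, and the change was -4.05 (standard error 0.26, limma adjusted p = 2.0e-07). Among MAX partners that oppose MYC, MXD4 rose by 2.76 ± 0.19, MXI1 by 1.14 ± 0.19 and MXD1 by 0.63 ± 0.17. MAX itself was at 0.50 and MXD3 at -0.29, and neither passed. MLXIPL, the glucose-sensing factor ChREBP of the same family, rose by 2.60 ± 0.22.

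Genes of ribosome assembly fell broadly. Of 77 assembly factors of the nucleolus 59 fell and 0 rose, against 17.1% and 18.0% of all genes. The falls numbered 62 without control replicate 1 and 52 without crizotinib replicate 3. The median log2 change was -1.15. BOP1, which is needed to make the large subunit, read 9.07, 9.14 and 9.18 on the crizotinib arrays, against 12.35, 12.14 and 12.04 on the control arrays, a change of -3.05 (standard error 0.16, limma adjusted p = 4.7e-08). RRS1 (-3.07) and NOP16 (-3.03) of the same subunit pathway fell as far, followed by NOLC1, a chaperone of small nucleolar particles (-2.85), and LYAR (-2.81). BYSL and NOP2 changed by -2.55 ± 0.20 and -2.42 ± 0.14. Factors that did not pass included NVL (-0.046), NOL9 (-0.10) and WDR74 (0.26). Of 34 subunits and factors of RNA polymerases I and III 12 fell and 2 rose, with 13 and 4 without control replicate 1. POLR3G and POLR3GL are alternative subunits of polymerase III, and they moved apart, POLR3G at -1.63 ± 0.31 and POLR3GL at 1.49 ± 0.18.

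The cytosolic ribosomal proteins did not follow the assembly factors. Of 67 tested 7 rose and 3 fell, with 6 and 3 without control replicate 1, and the median was 0.069. The falls were in RPL29 (-2.48), RPL36A (-2.49) and RPS7 (-1.68). Taking the probe with the smallest p of each gene gave 10 falls. Ribosomal protein genes have many processed pseudogenes of near-identical sequence, so single probes of this family are uncertain, and the 2 probes of RPL34 that passed went opposite ways (0.89 and -1.03). Mitochondrial ribosomal proteins fell in 29 of 75 and rose in 2 (1 without control replicate 2 or crizotinib replicate 1 or 2), led by MRPL12 (-1.79), MRPL17 (-1.45) and MRPL3 (-1.40). Of 34 tRNA synthetases 16 fell and 3 rose (1 without crizotinib replicate 1). The valine enzyme VARS1 changed by -2.68 (standard error 0.33, limma adjusted p = 3.9e-05). Translation factors fell in 17 of 50 (34%), against 17.1% of all genes. They rose in 8 (16%), no more than the 18.0% of all genes, and the rises numbered 3 without crizotinib replicate 1 and 4 without crizotinib replicate 2. The cap-binding scaffold EIF4G1 (-1.72), the helicase EIF4A1 (-1.39) and the cap-binding protein EIF4E (-1.28) fell. EIF4A2, a paralogue of EIF4A1, rose by 1.49 ± 0.19, and PDCD4, which binds and inhibits that helicase, rose by 1.81 ± 0.28.

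**Figure D4:**
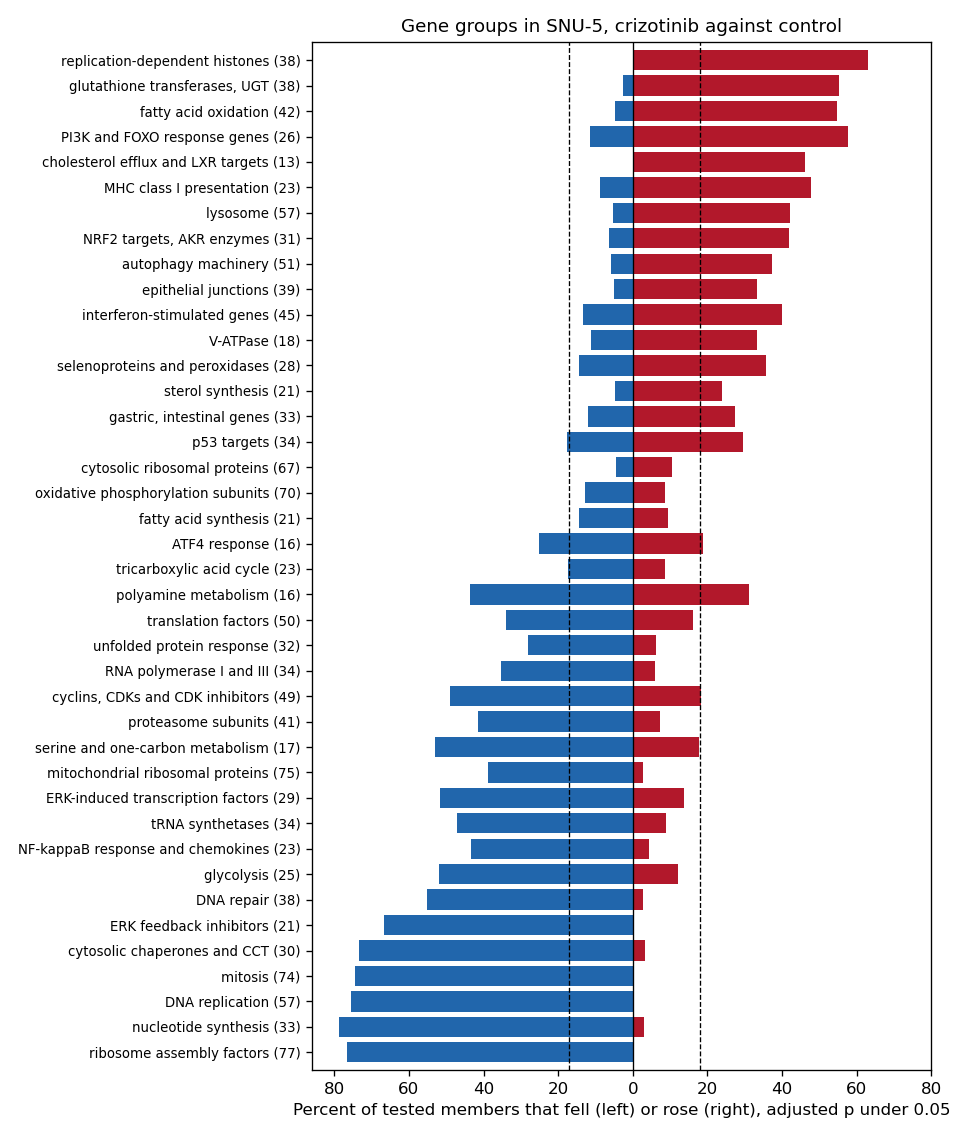
Percent of tested members of 40 gene groups that passed the adjusted p higher (bars to the right) or lower (bars to the left) with crizotinib in SNU-5 cells, and the number tested in brackets. Dashed lines mark the same percents over all 12760 genes, 18.0 and 17.1. Ribosome assembly, DNA replication, mitosis and nucleotide synthesis are among the bottom rows, and histones, glutathione transferases, PI3K and FOXO genes and fatty acid oxidation among the top rows.

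Enzymes of nucleotide synthesis also fell broadly. Of 33 enzymes 26 fell and 1 rose, and the counts were 25 and 1 without control replicate 1. RRM2, the small subunit of ribonucleotide reductase, read 5.55, 5.53 and 5.54 on the crizotinib arrays, against 8.16, 9.12 and 9.45 on the control arrays, a change of -3.37 (standard error 0.28, limma adjusted p = 1.6e-06). RRM2B, its paralogue induced by p53, was at 0.52 and did not pass. NME1, a nucleoside diphosphate kinase, changed by -3.38 ± 0.19, whereas the brightest probe of NME2, whose gene is near-identical, was at -0.086 without passing and its other probes disagreed in sign. UCK2, which salvages uridine, changed by -2.53 ± 0.18, TYMS, which makes thymidylate, by -2.40 ± 0.19 and CAD, which starts pyrimidine synthesis, by -2.13 ± 0.31. In the purine branch PFAS changed by -2.22 ± 0.25, GART by -1.40 ± 0.17 and PAICS by -1.34 ± 0.17. The single rise was CTPS2 (0.91), opposite to CTPS1, the other CTP synthase. Of 17 genes of serine, glycine and one-carbon metabolism 9 fell and 3 rose. PSAT1, of serine synthesis (-2.55), the reduced folate carrier SLC19A1 (-2.43) and the mitochondrial folate enzymes MTHFD1L (-2.16) and MTHFD2 (-1.40) fell. AMT, of the glycine cleavage system, rose by 1.77. Polyamine genes moved both ways. The biosynthetic enzymes SRM (-2.82), AMD1 (-1.68) and ODC1 (-1.52) fell, and the catabolic enzymes SAT1 (1.37) and PAOX (1.43) rose, as did SAT2 (1.54). Of 21 amino acid transporters 8 fell and 2 rose, including the arginine carrier SLC7A1 (-1.76) and the leucine carrier SLC7A5 (-1.15). Without crizotinib replicate 1 or 2 the falls numbered 5.

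Falls in the cell cycle ran from G1 cyclins to mitotic genes. Cyclin D1, CCND1, read 8.44, 8.36 and 8.45 on the crizotinib arrays, against 11.46, 11.17 and 11.08 on the control arrays, a change of -2.82 (standard error 0.15, limma adjusted p = 4.8e-08). CDC25A, the phosphatase that activates CDK2, changed by -3.27 ± 0.17 and cyclin E1, CCNE1, by -2.49 ± 0.18. The CDK inhibitors CDKN1B and CDKN2B rose by 1.65 ± 0.19 and 1.37 ± 0.15, and RBL2, the pocket protein of quiescent cells, by 0.79 ± 0.16, while CDKN1A was at -0.48 ± 0.23 and did not pass. In DNA replication 43 of 57 genes fell and 0 rose, with a median of -1.36, and 1 rose without control replicate 3 or crizotinib replicate 3. UHRF1, which guides DNA methylation to replicated strands, read 6.07, 5.83 and 5.99 on the crizotinib arrays, against 10.71, 9.94 and 9.43 on the control arrays, a change of -4.07 (standard error 0.26, limma adjusted p = 1.8e-07). CDC45, a part of the replicative helicase, read 6.11, 6.37 and 6.60 on the crizotinib arrays, against 10.22, 9.98 and 10.23 on the control arrays, a change of -3.78 (standard error 0.20, limma adjusted p = 4.7e-08). The helicase and its loaders fell as well, with GINS2 at -2.93 and MCM5 at -2.19, and CDC6, detected only without crizotinib, was at least 2.57-fold lower. The origin recognition subunits ORC2 (0.18) and ORC3 (-0.067) and the single-strand binding proteins RPA1 (0.014) and RPA3 (0.026) did not pass.

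Mitotic genes fell in 55 of 74 and rose in 0, with 65 falls without control replicate 1 and 44 without crizotinib replicate 2. SPC25, of the outer kinetochore, read 5.68, 5.00 and 6.11 on the crizotinib arrays, against 8.04, 8.34 and 8.40 on the control arrays, a change of -2.67 (standard error 0.23, limma adjusted p = 2.3e-06). CENPA, the centromeric histone, changed by -2.40 ± 0.18, PLK1 by -2.08 ± 0.26, AURKB by -1.98 ± 0.21 and CDK1 by -2.11 ± 0.36. TOP2A, the topoisomerase of dividing cells, was at -0.48 ± 0.31 and did not pass, and without control replicate 1 it was at -0.79 with an adjusted p of 0.047. Repair genes of homologous recombination and related pathways fell in 21 of 38, led by EXO1 (-3.63), RAD54L (-2.15) and BRCA1 (-1.87). Replication-dependent histones ran against this pattern, with 24 of 38 higher and 0 lower. H2AC6 rose by 2.77 ± 0.38, H2BC5 by 2.14 ± 0.23, H1-2 by 2.11 ± 0.34 and H3C10 by 2.11 ± 0.18. Without control replicate 1 the counts were 24 and 2. Their messages normally end in a stem-loop without a poly(A) tail, and the copies are close in sequence, so each histone probe may read several genes or a polyadenylated minor form.

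**Figure D5:**
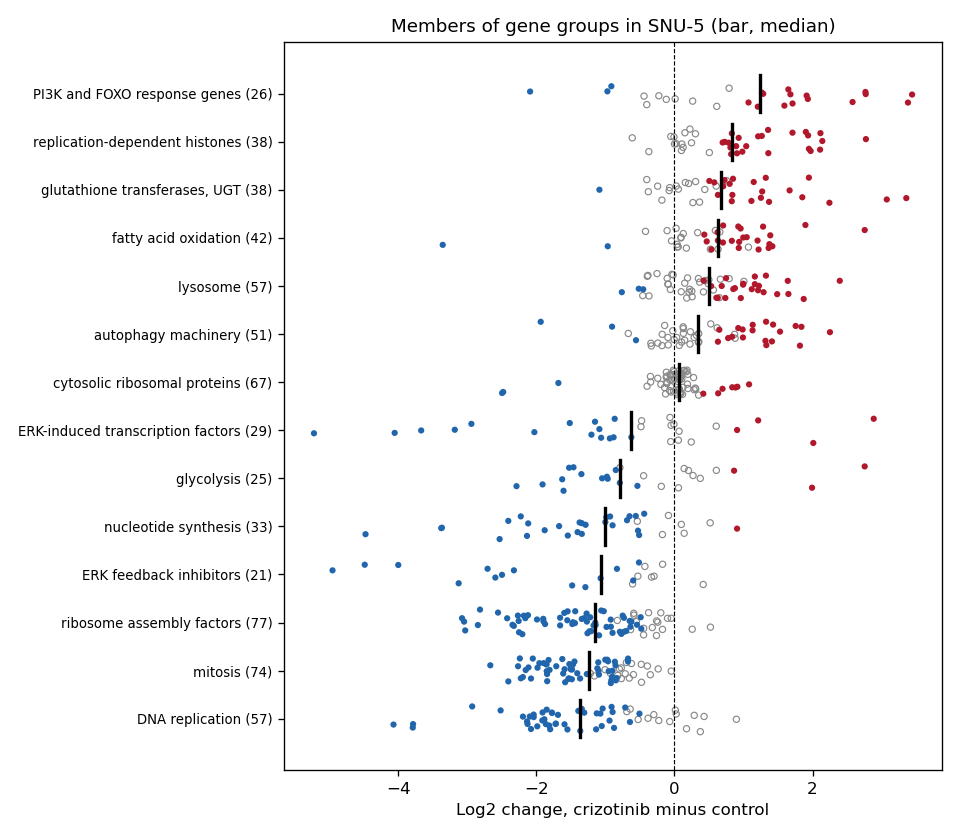
Log2 change (crizotinib minus control in SNU-5 cells, horizontal axis) of every tested member of 14 gene groups, 1 point per gene at its brightest probe, filled where the adjusted p was under 0.05. Vertical bars mark group medians, from -1.36 for DNA replication to 1.24 for the PI3K and FOXO response, and the dashed line marks 0.

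Short motifs were searched in the promoters of these groups. RefSeq promoters of 300 bases (GRCh38.p14, 250 before to 50 after the start, the first start listed for a gene) were found for 10113 of the 12760 tested genes, and both strands were searched. An E2F motif, TTTCCCGC or TTTGGCGC, was present in 34% of 50 promoters of the DNA replication group, against 3.6% of all. The CHR motif TTTGAA was present in 66.1% of 62 mitotic promoters, against 10.2% of all. The E-box CACGTG was present in 32.3% of 65 promoters of ribosome assembly factors, against 10%. The FOXO motif GTAAACA was present in 18.2% of 22 promoters of the PI3K and FOXO group, against 2.32%. TCACGTGA, the core of the lysosomal CLEAR element, which contains an E-box, was present in 19.5% of 41 lysosomal promoters, against 1.9%. These pairs were the motifs known for each group, and other pairs were also above the background or near it. The E-box was present in 29.3% of lysosomal promoters, the ETS motif CCGGAAGT in 24.6% of those of ribosome assembly factors, against 8.35% of all, and the CHR motif in 35.1% of 37 promoters of histones, of which 24 of 38 genes rose. The CLEAR core was present in 2.33% of 43 autophagy promoters. Over all called genes the shares lay closer to the background. The E2F motif was present in 5.92% of promoters of genes called lower and 2.85% of those called higher, and the E-box in 14.1% and 8.56%. The FOXO motif was present in 2.01% of promoters of genes called lower and 4.76% of those called higher, and the ETS motif in 10.3% and 3.8%. The AP-1 motif TGACTCA was present in 3.43% and 2.99%, the CRE motif TGACGTCA in 5.09% and 2.85%, and CCAAT in 40.2% and 38.5%. These are matches of letters in a fixed window and not measured binding. For each of the 5 group and motif pairs, the called member with the largest change among those holding the motif is shown. Members on the chromosome of BOP1 and RRS1 were left out of this choice. Sequences run 5′ to 3′, with the motif in capitals.
UHRF1 (E2F, chr19:4909251-4909550, strand +): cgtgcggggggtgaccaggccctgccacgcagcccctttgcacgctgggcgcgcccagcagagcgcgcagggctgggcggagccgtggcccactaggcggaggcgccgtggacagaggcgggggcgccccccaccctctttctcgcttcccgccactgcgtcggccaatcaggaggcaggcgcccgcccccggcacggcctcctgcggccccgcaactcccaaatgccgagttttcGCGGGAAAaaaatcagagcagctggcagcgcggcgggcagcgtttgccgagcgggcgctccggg
SPC25 (CHR, chr2:168890381-168890680, strand -): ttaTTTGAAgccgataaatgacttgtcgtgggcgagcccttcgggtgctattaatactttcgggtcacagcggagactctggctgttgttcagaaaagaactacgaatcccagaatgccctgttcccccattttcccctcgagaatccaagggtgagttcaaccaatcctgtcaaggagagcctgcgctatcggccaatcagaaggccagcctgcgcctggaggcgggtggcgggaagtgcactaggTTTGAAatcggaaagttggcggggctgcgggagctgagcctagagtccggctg
BYSL (E-box, chr6:41921249-41921548, strand +): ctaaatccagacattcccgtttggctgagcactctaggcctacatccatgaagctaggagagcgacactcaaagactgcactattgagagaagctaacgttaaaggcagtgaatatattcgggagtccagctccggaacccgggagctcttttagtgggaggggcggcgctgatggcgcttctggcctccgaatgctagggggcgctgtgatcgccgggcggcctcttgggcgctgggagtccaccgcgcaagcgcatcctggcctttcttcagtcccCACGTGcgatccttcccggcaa
YPEL3 (FOXO, chr16:30096164-30096463, strand -): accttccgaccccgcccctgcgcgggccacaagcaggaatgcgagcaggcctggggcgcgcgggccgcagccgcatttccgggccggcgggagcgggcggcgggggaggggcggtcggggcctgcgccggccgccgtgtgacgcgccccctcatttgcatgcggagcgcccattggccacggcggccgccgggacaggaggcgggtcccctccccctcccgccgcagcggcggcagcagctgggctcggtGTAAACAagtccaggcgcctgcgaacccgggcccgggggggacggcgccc
CTSA (CLEAR core, chr20:45891085-45891384, strand +): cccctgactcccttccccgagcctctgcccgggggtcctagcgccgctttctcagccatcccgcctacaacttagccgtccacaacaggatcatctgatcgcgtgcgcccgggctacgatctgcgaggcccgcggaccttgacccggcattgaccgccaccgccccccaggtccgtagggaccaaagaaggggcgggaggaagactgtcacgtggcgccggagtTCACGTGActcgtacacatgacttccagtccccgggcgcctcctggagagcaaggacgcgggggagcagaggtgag

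Cytosolic chaperones fell in 22 of 30 and rose in 1, and the counts without control replicate 1 were 22 and 2. The single rise was lost in 10 of the 12 fits without 1 array. HSPH1, an exchange factor of HSP70, changed by -1.99 ± 0.26, HSP90AB1, the constitutive HSP90, by -1.72 ± 0.28 and CCT7, of the chaperonin ring that folds actin and tubulin, by -1.69 ± 0.24. Proteasome subunits fell in 17 of 41 and rose in 3 (0 without control replicate 2 or crizotinib replicate 2, 1 without control replicate 3 or crizotinib replicate 1 or 3, and 5 without MKN45 control replicate 1), with PSME3, a nuclear activator, at -1.49 ± 0.20 and PSMD14, a deubiquitinase of the cap, at -1.11 ± 0.21. Of 32 genes of the endoplasmic reticulum chaperones and unfolded protein response 9 fell, among them SDF2L1 (-1.93), MANF (-1.43) and HSPA5, the chaperone BiP (-0.72). The ATF4 response was mixed, with 4 falls (25%) and 3 rises (18.8%) of 16, against 17.1% and 18.0% of all genes. GDF15, a secreted stress cytokine, changed by -3.23 (standard error 0.26, limma adjusted p = 1.1e-06), whereas DDIT4, an inhibitor of mTORC1, changed by 1.01, and by 0.78 with an adjusted p of 0.065 without control replicate 2.

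Genes of glucose use and fat use moved in opposite directions. Of 25 glycolytic genes 13 fell and 3 rose, with the same counts without control replicate 1. The glucose transporter SLC2A1 changed by -1.91 ± 0.17, the kinase PFKP by -1.62 ± 0.20 and enolase, ENO1, by -1.52 ± 0.13. The rises were the pyruvate dehydrogenase kinases PDK4, PDK2 and PDK3, which turn pyruvate away from the mitochondrial cycle. These kinases are not enzymes of glycolysis itself, and PDK4 was also counted in the fatty acid oxidation group. PDK4 read 11.62, 11.39 and 11.35 on the crizotinib arrays, against 8.54, 9.00 and 8.55 on the control arrays, a change of 2.76 (standard error 0.26, limma adjusted p = 3.8e-06). PDK3 changed by 0.86, and by 0.65 with an adjusted p of 0.069 without control replicate 2. GAPDH was at -0.19 and did not pass, and no SNU-5 array detected LDHB. ALDOA was at 0.37 without passing, and at -0.53 with an adjusted p of 0.023 without control replicate 1. In fatty acid oxidation and ketogenesis 23 of 42 genes rose and 2 fell, with a median of 0.63. ACADM and ACADS, the dehydrogenases for medium and short chains, rose by 1.39 ± 0.25 and 1.36 ± 0.18, the thiolase ACAA2 by 1.22 ± 0.15 and the triglyceride lipase PNPLA2 by 1.42 ± 0.25. The transcription factor PPARA, detected only with crizotinib, was at least 1.59-fold higher. CPT1A, the carrier step for entry into mitochondria, was at 0.10 ± 0.25 and did not pass. ACOX2, the oxidase for branched chains in peroxisomes, read 5.53, 5.65 and 5.95 on the crizotinib arrays, against 9.46, 8.84 and 8.89 on the control arrays, a change of -3.35 (standard error 0.28, limma adjusted p = 1.4e-06).

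Cholesterol efflux genes rose in 6 of 13 and fell in 0, and 9 rose without control replicate 1 and 1 fell without control replicate 3. ABCA1, which loads cholesterol on apolipoproteins, read 10.71, 10.76 and 10.60 on the crizotinib arrays, against 6.56, 7.24 and 7.11 on the control arrays, a change of 3.72 (standard error 0.19, limma adjusted p = 4.4e-08). ABCG1 rose by 1.54 ± 0.26, the lysosomal carrier NPC2 by 1.64 ± 0.15 and the nuclear receptor NR1H3, which is LXR alpha, by 1.25 ± 0.17. Of 21 genes of sterol synthesis 5 rose, TM7SF2 (2.01) the furthest, and 1 fell. Without control replicate 2 or crizotinib replicate 1 or 2 the rises numbered 3, and the fall was lost without control replicate 2 or 3 or crizotinib replicate 1 or 3. Of 21 genes of fatty acid synthesis FASN (-1.41) and ELOVL6 (-0.77) fell, and the mitochondrial carboxylase ACACB rose by 1.64. In the tricarboxylic acid cycle 4 of 23 genes (17.4%) fell and 2 (8.70%) rose, shares near or below those of all genes. The rises numbered 1 without crizotinib replicate 1 or 2 or any of 3 MKN45 arrays. Pyruvate carboxylase, PC, was at -2.08 ± 0.36 and IDH1 at 1.17 ± 0.21. Subunits of oxidative phosphorylation fell in 9 of 70 and rose in 6, shares below those of all genes in both directions, and leaving out 1 array gave 3 to 12 falls and 3 to 8 rises, the fewest falls without crizotinib replicate 3 and the fewest rises without crizotinib replicate 1 or 2.

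Lysosomal genes rose in 24 of 57 and fell in 3, with 29 and 5 without control replicate 1. The rises numbered 17 without crizotinib replicate 2. The falls numbered 5 without control replicate 3 as well, and 1 without control replicate 2 or crizotinib replicate 1. The cysteine protease CTSF read 8.97, 9.09 and 8.45 on the crizotinib arrays, against 7.13, 6.21 and 5.99 on the control arrays, a change of 2.39 (standard error 0.26, limma adjusted p = 1.3e-05). FUCA1, which removes fucose, rose by 1.87 ± 0.17, MANBA, a mannosidase, by 1.65 ± 0.17, the sialidase NEU1 by 1.49 ± 0.19 and the membrane protein LAMP2 by 1.33 ± 0.15. CTSC, which activates serine proteases of granules, fell by 0.76. LAMP1, a main membrane protein of lysosomes, was at -0.095, and the transcription factors TFEB (-0.10) and TFE3 (-0.25) did not pass, nor did LAMP1. Of 18 subunits of the proton pump that acidifies lysosomes 6 rose and 2 fell, and 3 rose without crizotinib replicate 1 or 2. The falls numbered 1 without control replicate 1 or 2 or crizotinib replicate 1 or 3. In the autophagy machinery 19 of 51 genes rose and 3 fell. ULK1, the kinase that starts autophagosome formation, read 10.80, 10.70 and 10.80 on the crizotinib arrays, against 9.10, 8.82 and 8.85 on the control arrays, a change of 1.84 (standard error 0.17, limma adjusted p = 3.1e-06). GABARAPL1, of the LC3 family, rose by 2.25 ± 0.13, MAP1LC3A by 1.41 ± 0.28, the cargo receptor OPTN by 1.76 ± 0.18 and the mitophagy receptor BNIP3L by 1.82 ± 0.27. MAP1LC3B was at -0.24 ± 0.14 and did not pass, and ATG16L1, which directs lipidation of LC3, changed by -1.94 (standard error 0.18, limma adjusted p = 4.5e-06).

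Enzymes of detoxification rose broadly. Of 38 glutathione transferases, glucuronosyltransferases and related enzymes 21 rose and 1 fell, and 19 rose without control replicate 1. GSTA1 and GSTA2, which are near-identical and may share probes, changed by 3.36 ± 0.36 and 3.08 ± 0.33, GSTA4 by 2.24 ± 0.15 and the retinal dehydrogenase ALDH1A1 by 1.85 ± 0.25. AKR1C2, a keto steroid reductase, read 13.51, 13.21 and 12.99 on the crizotinib arrays, against 9.77, 9.96 and 9.43 on the control arrays, a change of 3.52 (standard error 0.19, limma adjusted p = 4.9e-08). Its close relatives AKR1C3 and AKR1C4 rose by 2.48 and 2.45. AKR1C sequences are also close enough for probes to be shared. In the group of targets of the oxidant-sensing factor NRF2 and aldo-keto reductases 13 of 31 rose and 2 fell. The counts were 15 and 2 without control replicate 1, and 10 rose without control replicate 2 or 3 or crizotinib replicate 1 or 2. GCLC, the catalytic subunit for glutathione synthesis, rose by 1.69 ± 0.18 and its modifier GCLM changed by -0.59 ± 0.15, while HMOX1 (0.28) and TXNRD1 (0.36) did not pass. SELENOP, which carries selenium in plasma, read 10.06, 9.84 and 9.70 on the crizotinib arrays, against 5.52, 6.45 and 6.04 on the control arrays, a change of 3.86 (standard error 0.30, limma adjusted p = 8.6e-07). GPX3 and GPX2, peroxidases that contain selenium, rose by 2.71 ± 0.16 and 1.55 ± 0.17. Of the prostaglandin genes, HPGD, which inactivates prostaglandins by oxidation, read 10.30, 10.16 and 9.90 on the crizotinib arrays, against 5.93, 6.82 and 6.39 on the control arrays, a change of 3.74 (standard error 0.28, limma adjusted p = 7.0e-07). PLA2G10, a secreted phospholipase, rose by 2.95 ± 0.26 and PTGDS by 2.21 ± 0.23, while the cyclooxygenase PTGS2 was detected on 1 control array and no other.

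Junction genes rose more often than they fell, and gastric and intestinal genes were mixed. Of 39 junction genes 13 rose and 2 fell, with 11 and 1 without control replicate 1, and 8 rises without crizotinib replicate 1 or 3, and 1 fall without crizotinib replicate 2. CLDN3, a claudin that seals tight junctions, changed by 2.28 (standard error 0.19, limma adjusted p = 1.5e-06), CLDN7 by 1.72 ± 0.15 and plakoglobin, JUP, by 1.72 ± 0.36. CDH1, E-cadherin, changed by 1.00 ± 0.21 at a probe detected on 1 of 3 control arrays and all 3 crizotinib arrays. EPCAM was at -0.24 and did not pass. In the gastric and intestinal group 9 of 33 (27.3%) rose and 4 (12.1%) fell, against 18.0% and 17.1% of all genes. The median was 0.013. No SNU-5 array detected 8 of these 33 genes or 7 of the 39 junction genes. CDX2, the intestinal homeobox factor, read 10.52, 10.66 and 10.20 on the crizotinib arrays, against 8.32, 8.02 and 7.69 on the control arrays, a change of 2.45 (standard error 0.18, limma adjusted p = 6.7e-07). HNF4G and FOXA1 rose by 1.63 ± 0.20 and 1.54 ± 0.28, the chloride exchanger SLC26A3 by 2.14 ± 0.24 and the cadherin CDH17 by 0.81 ± 0.19, while the intestinal markers VIL1, a microvillar actin bundler, and KRT20 were at -0.65 ± 0.37 and -0.44 ± 0.19 without passing. The gastric marker ANXA10 changed by -1.26 ± 0.26 and the adhesion proteins CEACAM6 and CEACAM1 by -3.06 ± 0.20 and -2.76 ± 0.15, while CEACAM5 was detected on 1 control array and no other. Among mucins MUC13 and MUC1 rose by 2.61 ± 0.19 and 2.16 ± 0.23, AGR3 rose by 2.49 ± 0.28 and GCNT3, which branches mucin glycans, changed by -2.53 ± 0.17.

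Keratins were mixed. KRT7, detected only without crizotinib, was at least 2.32-fold lower, KRT19 was at 0.25 without passing, and KRT16, which has near-identical pseudogenes, changed by 2.45 ± 0.20. KRT18 read 7.72, 7.89 and 8.15 on the crizotinib arrays, against 5.02, 8.92 and 9.33 on the control arrays. Control replicate 1 was far below the other controls, so the log2 change was 0.17 with it and -1.20 without it, and the adjusted p was 0.91 and 0.0011. The fibroblast genes that were detected moved both ways, the small proteoglycans LUM (2.50) and DCN (2.62) up and COL1A2 down. In the plasminogen and coagulation group 9 of 22 fell and 4 rose, with the urokinase receptor PLAUR at -1.75 ± 0.19 and the protein C receptor PROCR at -1.60 ± 0.18. The serpin SERPINB5, maspin, rose by 1.56 ± 0.16. EFNA1, a ligand of EPHA2, rose by 2.41 ± 0.16 as its receptor fell, and EFNB2 changed by -1.40 ± 0.22. Of the integrin group ITGA6 changed by -1.17 ± 0.21 and FERMT1, which activates integrins, by -1.63 ± 0.15. Of 61 actin, tubulin and actin-regulating genes 17 fell and 4 rose (7 rises without control replicate 1). The falls included FSCN1, which bundles filopodial actin (-2.45), TUBB3 (-1.98) and ACTB (-1.23). Of the small calcium-binding proteins, S100A3 fell by 2.43 and S100P rose by 1.11, and S100A2, detected only without crizotinib, was at least 2.46-fold lower.

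Antigen presentation and part of the interferon-stimulated genes rose, whereas chemokines fell. Of 23 genes of MHC class I presentation and related molecules 11 rose and 2 fell. The counts were 12 and 2 without control replicate 1, with 4 falls without control replicate 3. Without control replicate 2 or crizotinib replicate 2 the rises numbered 8. B2M, the invariant chain, changed by 0.98 (standard error 0.22, limma adjusted p = 0.0039) and did not overlap between the groups. HLA-E rose by 1.32 ± 0.21, HLA-C by 1.03 ± 0.19 and HLA-F by 1.19 ± 0.16, though probes of these similar genes may be shared, and the peptide loader TAPBP rose by 1.30 ± 0.30. TAP2 fell by 1.35 and TAP1 was at -0.012 without passing. Among 45 interferon-stimulated genes 18 rose and 6 fell, 3 without crizotinib replicate 1. GBP2, a guanylate-binding protein, changed by 2.28 ± 0.14, SAMD9 by 1.68 ± 0.34, EPSTI1 by 1.65 ± 0.18 and IFIT2 by 1.45 ± 0.19. OAS3 (-1.41), MX1 (-1.07) and ISG15 (-1.02) fell, so the list did not move as one. In the NF-kappaB and chemokine group 10 of 23 fell and 1 rose (2 without control replicate 3, 0 without crizotinib replicate 1 or 2). CXCL8, the neutrophil attractant interleukin-8, read 5.03, 4.76 and 4.83 on the crizotinib arrays, against 8.64, 9.57 and 9.71 on the control arrays, a change of -4.43 (standard error 0.31, limma adjusted p = 3.3e-07). CXCL1 changed by -1.94 ± 0.20 and LIF, a cytokine of the interleukin-6 family, by -2.49 ± 0.25. NFKBIA, the inhibitor that NF-kappaB induces, was at 0.26 and did not pass. The complement factors CFB and CFD rose by 2.60 ± 0.22 and 1.98 ± 0.23.

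Death and survival genes moved in both directions. TNFSF10, the death ligand TRAIL, read 11.03, 11.19 and 11.35 on the crizotinib arrays, against 6.90, 7.64 and 7.92 on the control arrays, a change of 3.70 (standard error 0.29, limma adjusted p = 8.6e-07), whereas its receptors TNFRSF10A and TNFRSF10B changed by -1.49 ± 0.25 and -0.88 ± 0.19. Among BH3-only genes BMF changed by 1.41 ± 0.21 and BBC3, which encodes PUMA, by 0.74 ± 0.16, and BID by -1.41 ± 0.20. PMAIP1, which encodes NOXA, was detected only without crizotinib and was at least 2.88-fold lower. BCL2L11, which encodes BIM, was at 0.12 ± 0.22 and did not pass. The survival genes MCL1 (-0.016), BCL2L1 (-0.50) and XIAP (0.23) did not pass, CFLAR rose by 1.16 ± 0.28 and survivin, BIRC5, which also acts in mitosis, changed by -1.89 ± 0.26. Of 34 p53 targets 10 (29.4%) rose and 6 (17.6%) fell, against 18.0% and 17.1% of all genes, and 6 rose without crizotinib replicate 2. TP53INP1 changed by 2.85 ± 0.18 and BTG1 by 1.86 ± 0.18, the nuclease gene AEN by -2.74 ± 0.26 and TIGAR by -1.94 ± 0.18, and MDM2 was detected on 1 crizotinib array and no other.

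Other signalling lists were mixed, and several of their shares lay near or below those of all genes, 18.0% higher and 17.1% lower. In the TGF-beta and BMP group 9 of 38 (23.7%) rose and 5 (13.2%) fell. The counts were 10 and 4 without control replicate 1, and 3 fell without any 1 of the crizotinib arrays. ID2 was at 2.75 ± 0.21, the receptor BMPR2 at 1.79 ± 0.23 and PMEPA1, which restrains TGF-beta signals, at -2.14 ± 0.27. Of 22 Notch genes 5 (22.7%) fell and 3 (13.6%) rose, with the ligand JAG1 at -1.97 ± 0.19 and the glycosyltransferase LFNG at 2.22 ± 0.14. Wnt and stem cell genes fell in 10 of 36 (27.8%) and rose in 3 (8.33%), and WNT7B changed by -1.52 ± 0.28. The rises numbered 1 without control replicate 1, any 1 crizotinib array or any of 3 MKN45 arrays. No SNU-5 array detected 5 of the 36 Wnt and stem cell genes or 5 of the 22 Notch genes. Of 22 hypoxia genes 9 (40.9%) fell and 4 (18.2%) rose, with the adipokine ANGPTL4 at -1.85 ± 0.42 and NDRG1 at 1.90 ± 0.35. Among 25 YAP and TAZ targets 4 fell and 4 rose, 16% each way and below the shares of all genes. CCN1 was at -1.36 ± 0.20 and CCN2 at -0.19 ± 0.15, the second without passing. Chromatin genes included the maintenance methyltransferase DNMT1 at -2.04 ± 0.18, the methyltransferase EZH2 at -0.91 ± 0.15 and the demethylase KDM5B at 1.75 ± 0.22. Of 13 genes commonly used as references, ACTB, PGK1 (-1.05) and HPRT1 (-0.99) fell and GUSB (0.19) did not pass.

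For 8 genes 2 probes passed in opposite directions, namely ACOT7, CASP4, CBX2, LARP1B, NME2, PRKAG2, RPL34 and SNHG7. SNHG7, a host of small nucleolar RNAs, was the single gene called both ways, with 1.24 and 1.04 at 2 probes and -1.27 at the third. All 3 of its probes were detected on all 6 arrays. A probe reads only the transcripts it matches, and which transcripts these are was not analysed here. Some genes that passed were measured on only part of 1 group. CCN1, CXCL8, EIF4E, ETV4, FOSL1, PC and SPRY4 were detected on all control arrays and on 1 crizotinib array, and EXO1 on 2. ACACB, BMF, CDH1, DCN, MXI1 and PLA2G10 were detected on all crizotinib arrays and on 1 control array, and GSTA1, GSTA2 and PDK3 on 2.

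The response was set against that of MKN45 by testing the difference of the 2 changes in the same fit. The difference was called for 851 of 12760 genes (6.67%), 421 of them more positive in SNU-5 and 430 more negative. HPGD changed by 3.74 in SNU-5 and by -0.064 in MKN45, a difference of 3.80 with an adjusted p of 4.9e-05. AKR1C2 changed by 3.52 in SNU-5 and -0.0031 in MKN45, a difference of 3.52 with an adjusted p of 4.6e-06, and MUC13 by 2.61 in SNU-5 and -1.35 in MKN45, a difference of 3.96 with an adjusted p of 2.2e-06. These enzymes rose in SNU-5 and were close to level in MKN45, while this mucin rose in SNU-5 and fell in MKN45. KRT80 changed by -4.37 in SNU-5 and -0.95 in MKN45, a difference of -3.42 with an adjusted p of 9.3e-05, and GDF15 by -3.23 in SNU-5 and -0.32 in MKN45, a difference of -2.91 with an adjusted p of 2.2e-04. Within the ERK feedback loop the difference was called for DUSP5, at -4.00 in SNU-5 and -1.17 in MKN45 (-2.83 with an adjusted p of 2.3e-05), and it did not pass for DUSP6, at -4.48 in SNU-5 and -3.98 in MKN45 (-0.50 with an adjusted p of 0.16). For MYC, at -4.05 in SNU-5 and -4.58 in MKN45, and for MET, at -0.16 in SNU-5 and -0.84 in MKN45, the difference did not pass either (0.53 with an adjusted p of 0.45 and 0.68 with an adjusted p of 0.18).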

How the data were processed

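RNA of 12 samples, 3 per group, was hybridised to Illumina HumanHT-12 v4 arrays. The authors deposited probe signal intensities without normalization, each with a detection p-value, the share of negative control probes at least as bright. The sources used here do not give the scanner settings. The authors also deposited log2 values, quantile normalized in limma, which served as an alternative.

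The signal intensities of all 12 arrays were background corrected with normexp, quantile normalized and put on the log2 scale with an offset of 16 by neqc in limma 3.58.1 under R 4.3.3. Of 47323 probes, 23525 were tested, those detected (p below 0.05) on 3 or more of the 12 arrays. A probe table of the platform gave 1 gene to 30113 probes, several to 8 and none to 17202. A gene was represented by its probe with the highest mean signal over the SNU-5 arrays. Group means were fitted to all 12 arrays with lmFit and eBayes, with Benjamini-Hochberg adjustment over all tested probes. A gene detected on no array of 1 group was given as a bound, the mean of the brighter group over the detection floor of the dimmer one, both taken from normalized log2 values.

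The genes named are the 15 largest rises and falls detected on all 6 arrays without overlap, the 10 largest bounds in each direction, MET, and from 72 gene lists up to 6 members with the smallest adjusted p plus members whose role needed a value. Members and lists were chosen with earlier results of these data known. The fit and the calls were tested on simulated data, and the gene lists, bounds and motif search were not. Alternatives covered normalization, filter, samples, replicate block, fold threshold, probe choice, a plain two-sample t-test in place of the random variance t-test of the methods and leaving out each array.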

Additional observations from a re-analysis of the deposited data

Results flagged for a closer look

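Of the 346 genes named in the text, 49 had a log2 change that differed between SNU-5 and MKN45 by at least 4-fold in the limma fit. Each is given with its difference, the change in SNU-5 less that in MKN45, and then both changes. The highest adjusted p of these differences was 0.011. Some genes rose in SNU-5 and fell in MKN45. They included the mucin MUC13 (3.96, from 2.61 in SNU-5 and -1.35 in MKN45), the peroxidase GPX2 (3.37, from 1.55 in SNU-5 and -1.82 in MKN45), the serpin SERPINB5 (3.36, from 1.56 in SNU-5 and -1.79 in MKN45) and the calcium-binding protein S100P (2.66, from 1.11 in SNU-5 and -1.55 in MKN45). The sialidase NEU1 (2.37, from 1.49 in SNU-5 and -0.88 in MKN45), the adaptor IRS2 (2.31, from 1.59 in SNU-5 and -0.72 in MKN45) and the Krüppel-like factor KLF5 (2.30, from 1.21 in SNU-5 and -1.08 in MKN45) did the same.

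Other genes rose in SNU-5 and did not pass in MKN45, where 4 or more of 6 arrays detected them. The enzymes among them were HPGD (3.80, from 3.74 in SNU-5 and -0.064 in MKN45), AKR1C2 (3.52, from 3.52 in SNU-5 and -0.0031 in MKN45) and PDK4 (2.13, from 2.76 in SNU-5 and 0.62 in MKN45). Regulators and a mitophagy receptor were ID2 (3.01, from 2.75 in SNU-5 and -0.26 in MKN45), KLF2 (2.42, from 2.01 in SNU-5 and -0.41 in MKN45) and BNIP3L (2.18, from 1.82 in SNU-5 and -0.36 in MKN45). Secreted and junction proteins were AGR3 (2.68, from 2.49 in SNU-5 and -0.19 in MKN45), CFB (2.44, from 2.60 in SNU-5 and 0.15 in MKN45), LUM (2.65, from 2.50 in SNU-5 and -0.15 in MKN45) and CLDN7 (2.08, from 1.72 in SNU-5 and -0.36 in MKN45). The actin-severing SCIN (3.16, from 3.81 in SNU-5 and 0.65 in MKN45) rose in both lines, further in SNU-5. A further set rose in SNU-5 and was detected on at most 1 of the 6 MKN45 arrays, namely GPX3 (2.83, from 2.71 in SNU-5 and -0.13 in MKN45), DCN (2.68, from 2.62 in SNU-5 and -0.059 in MKN45), KRT16 (2.44, from 2.45 in SNU-5 and 0.014 in MKN45) and PTGDS (2.17, from 2.21 in SNU-5 and 0.042 in MKN45), together with SLC26A3 (2.14, from 2.14 in SNU-5 and 0.00027 in MKN45), ECM2 (2.23, from 2.20 in SNU-5 and -0.033 in MKN45) and PTH1R (2.19, from 2.18 in SNU-5 and -0.0092 in MKN45). The leucine carrier SLC7A5 (2.10, from -1.15 in SNU-5 and -3.25 in MKN45) fell in both lines, further in MKN45. FOS and CLDN2 fell in both lines, but no SNU-5 crizotinib array detected them, so their differences between the lines cannot be read as sizes, FOS (3.88, from -1.06 in SNU-5 and -4.94 in MKN45) and CLDN2 (2.77, from -2.70 in SNU-5 and -5.47 in MKN45). The genes PTGS2 (3.02, from -0.15 in SNU-5 and -3.18 in MKN45) and TFF1 (2.34, from -0.15 in SNU-5 and -2.49 in MKN45) did not pass in SNU-5, where at most 1 of 6 arrays detected them.

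Among negative differences, genes that fell in SNU-5 and rose in MKN45 were KRT7 (-2.10, from -1.41 in SNU-5 and 0.69 in MKN45), JUN (-2.81, from -1.51 in SNU-5 and 1.29 in MKN45) and TUBB3 (-2.97, from -1.98 in SNU-5 and 0.99 in MKN45), together with DEPTOR (-3.26, from -0.91 in SNU-5 and 2.35 in MKN45) and GRHL3 (-3.72, from -2.84 in SNU-5 and 0.88 in MKN45). JUN encodes a subunit of AP-1 and DEPTOR an inhibitor of mTOR. Genes that fell in SNU-5 and did not pass in MKN45 were FSCN1 (-2.16, from -2.45 in SNU-5 and -0.29 in MKN45), CEACAM1 (-2.71, from -2.76 in SNU-5 and -0.045 in MKN45), STEAP3 (-2.79, from -2.67 in SNU-5 and 0.11 in MKN45) and GDF15 (-2.91, from -3.23 in SNU-5 and -0.32 in MKN45). The genes THBD (-3.04, from -3.11 in SNU-5 and -0.073 in MKN45) and COL1A2 (-3.39, from -3.25 in SNU-5 and 0.14 in MKN45) also fell in SNU-5, and none of the MKN45 arrays detected them. Some genes fell in both lines, further in SNU-5. They were EGR1 (-2.15, from -2.94 in SNU-5 and -0.79 in MKN45) and UHRF1 (-2.26, from -4.07 in SNU-5 and -1.81 in MKN45). VGF (-2.36, from -3.66 in SNU-5 and -1.30 in MKN45) and DUSP5 (-2.83, from -4.00 in SNU-5 and -1.17 in MKN45) did the same. So did KRT80 (-3.42, from -4.37 in SNU-5 and -0.95 in MKN45). CXCL8 (-2.21, from -4.43 in SNU-5 and -2.22 in MKN45) also fell in both lines. It was detected on 4 of 6 arrays of each line, so its difference cannot be read as a size. The transferase GSTA2 (-2.13, from 3.08 in SNU-5 and 5.20 in MKN45) rose in both lines, further in MKN45. The BH3-only gene BMF (-2.24, from 1.41 in SNU-5 and 3.66 in MKN45) rose in both lines as well. BMF was likewise detected on 4 of 6 arrays of each line, so its difference cannot be read as a size. For FOS, CLDN2, KRT7, STEAP3, THBD, COL1A2, GRHL3, ECM2 and PTH1R, detected in only 1 group of SNU-5, the values here are fitted changes and not bounds.

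Probes without a single gene name took no part in the comparisons of genes. Of 6305 such probes tested in SNU-5, 407 were called, 186 higher and 221 lower with crizotinib.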

How the results depend on the processing

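The 4 counts over all genes were within 1.5 times their values under most of 21 alternatives. Calls numbered 638 higher and 755 lower with quantile normalization without background correction, 639 and 753 with the deposited log2 values, 876 and 985 without a filter on dim probes, and 763 and 868 in a fit of the 6 SNU-5 arrays alone. The exceptions were the absence of a fold threshold, with 1420 genes called higher, and a plain two-sample t-test, with 400 called higher, 454 called lower, 1363 past the adjusted p higher and 1332 lower. It takes each probe's spread from the 6 SNU-5 arrays alone. The study's methods name a random variance t-test, which shares the spread across genes and was not run. Leaving out each array gave 806 to 1053 genes called higher, 928 to 1125 called lower, 1753 to 2495 past the adjusted p higher and 1754 to 2222 lower. With the replicate block there were 967 called higher, 1082 lower, 2481 past the adjusted p higher and 2296 lower. The deviations of same-numbered crizotinib and control arrays correlated at 0.10, 0.012 and 0.45, and those of unlike-numbered arrays at -0.36 to 0.26. These values did not settle whether the numbers mark pairs. The main fit did not treat them as pairs. Of 293 named genes that passed, 252 stayed past the adjusted p in the same direction in every alternative. ALDOA and KRT18 did not pass in the full fit, and leaving out single SNU-5 arrays moved them between -0.53 and 0.91 and between -1.20 and 0.95, the lowest without control replicate 1 and the highest without control replicate 3. The cause was not tested. Over the gene groups named, 209 of 1920 counts moved by over 1.5 times. With 3 arrays per group small changes were not resolved, signals near background were compressed by the offset, and 1 dose and 1 time point were measured.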
